A study of Mus musculus with 4 samples.

Results

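The 10 miRNAs described here are the mature arms of 5 precursors, miR-127, miR-136, miR-431, miR-433 and miR-434, which are transcribed antisense to the gene Rtl1 in the imprinted Dlk1-Dio3 region. They were chosen by name, as every arm of these precursors among the 1038 known miRNAs of the table, and all 10 were found. Small RNA was sequenced from the medial prefrontal cortex of control and CUMS mice, in 2 libraries per group, and the comparison asks which miRNAs differ in level after chronic stress. CUMS is chronic unpredictable mild stress, a schedule of mild stressors such as isolation, restraint, a tilted or damp cage, noise and disturbed light that was applied for 3 weeks. All mice were C57BL/6J males that entered the experiment at postnatal day 21, which is not their age at collection. A week of adaptation came before the 3 weeks of stress, and the controls were not stressed. The cortices were collected 1 day after the behavioral tests. The stressed mice were those that had developed depression-like behavior, so the CUMS group is a selected one and not a sample of all stressed mice.

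Genes of the Dlk1-Dio3 region are expressed from only one parental allele. Rtl1, a gene derived from a retrotransposon, is expressed from the paternal chromosome, whereas the antisense transcript that carries these hairpins is expressed from the maternal one. A hairpin is cut into a 5p and a 3p arm, and the arm that is loaded into an Argonaute protein represses mRNAs that pair with its seed. Because these miRNAs are copied from the strand opposite Rtl1, they are perfectly complementary to the Rtl1 mRNA and are known to direct its cleavage. The region is active in brain, and it also holds the large Mirg cluster, many members of which are known from neurons. Among the miRNAs described here, miR-127 is known as a repressor of Bcl6, and miR-431 is known from axon growth of sensory neurons.

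The mature sequences are shown first. They were taken from RefSeq (GRCm38.p6), where all 10 arms were matched by name, and the capitals mark the seed, bases 2 to 8 counted from the 5′ end. The arms of each hairpin stand together in their order along the plus strand of chromosome 12.
mmu-miR-431-5p: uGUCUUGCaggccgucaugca
mmu-miR-431-3p: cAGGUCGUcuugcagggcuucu
mmu-miR-433-5p: uACGGUGAgccugucauuauuc
mmu-miR-433-3p: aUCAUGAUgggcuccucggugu
mmu-miR-127-5p: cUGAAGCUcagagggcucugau
mmu-miR-127-3p: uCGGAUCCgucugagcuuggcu
mmu-miR-434-5p: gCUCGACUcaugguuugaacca
mmu-miR-434-3p: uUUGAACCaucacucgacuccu
mmu-miR-136-5p: aCUCCAUUuguuuugaugaugg
mmu-miR-136-3p: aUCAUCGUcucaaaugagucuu

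The 10 arms had 10 different seeds, so they form a cluster by position and not a seed family. The closest seeds, those of mmu-miR-136-3p and mmu-miR-433-3p and those of mmu-miR-136-5p and mmu-miR-434-5p, shared 5 of 7 bases at the same positions. Of the other mature mouse miRNAs in the RefSeq table, 0 had the seed of any member. 9 of the 10 arms were 22 nucleotides long, and mmu-miR-431-5p had 21. GC content ran from 36.4% in both arms of miR-136 to 59.1% in mmu-miR-127-3p and mmu-miR-431-3p. 4 arms began with U, namely mmu-miR-127-3p, mmu-miR-434-3p, mmu-miR-431-5p and mmu-miR-433-5p.

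In 2 hairpins the arms repeated a stretch of sequence. The arms of miR-431 shared the 10-base run gucuugcagg, at bases 2 to 11 of mmu-miR-431-5p, where it holds the seed, and at bases 7 to 16 of mmu-miR-431-3p. The arms of miR-434 shared the 9-base run uuugaacca, at bases 1 to 9 of mmu-miR-434-3p, again with the seed, and at bases 14 to 22 of mmu-miR-434-5p. In the other hairpins the longest shared run was 4 or 5 bases.

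All 5 hairpins lay in exon 2 of Rtl1, inside its coding sequence and on the opposite strand, within 4942 bases. The authors' notes name the mm10 assembly, which is GRCm38, so the coordinates of both annotations can be used. Rtl1 is on the minus strand, with exon 2 at chr12:109589193-109595488. Along the plus strand the order was miR-431 at chr12:109590447-109590537, miR-433 at chr12:109591715-109591838, miR-127 at chr12:109592846-109592915, miR-434 at chr12:109594506-109594599 and miR-136 at chr12:109595327-109595388. The hairpin of miR-136 thus lay nearest the start of the Rtl1 protein, ending 15 bases from the first base of the start codon, and that of miR-431 lay farthest, 4866 bases away. All 10 arms had exactly 1 perfectly complementary site in the 6358-base Rtl1 transcript of GENCODE M21. Of 1679 mature mouse miRNAs searched, 11 had such a site, the 10 arms and mmu-miR-432, whose level was not analysed here. The sites of the most abundant arms are given as DNA letters of the Rtl1 mRNA strand, with the bases opposite the seed in capitals.
Site of mmu-miR-127-3p, bases 2642 to 2663 of the transcript (chr12:109592888-109592909, minus strand): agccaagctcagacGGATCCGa
Site of mmu-miR-434-3p, bases 965 to 986 of the transcript (chr12:109594565-109594586, minus strand): aggagtcgagtgatGGTTCAAa

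The libraries held between 9589323 and 10783592 reads on known miRNAs, and the whole reads of every library were worked out from the means that the table holds. Letters a and b separate the libraries of each group, whose replicate numbers cannot be told from the means. Levels are given as normalized read counts, that is reads divided by the library's size factor, which was between 0.944 and 1.06. The labelled tissue was checked with miRNAs known from certain cells. The 4 neuronal miRNAs (miR-124-3p, miR-9-5p, miR-128-3p and miR-138-5p) took between 6.7% and 9.43% of the reads of every library. Those known from red cells took between 1.07% and 1.33%, from endothelium 0.118% to 0.145% and from choroid plexus 0.124% to 0.204%. Those of oligodendrocytes took 0.0628% to 0.0776%, of microglia and other immune cells 0.0186% to 0.0257%, and of muscle at most 0.00323%. Liver miR-122-5p had at most 1 read in a library. These sums of reads are not shares of cells. miR-9-5p was the largest part of the neuronal sum, with miR-124-3p and miR-138-5p far scarcer. Nearly all of the red-cell sum was miR-486a-5p, with miR-451a, miR-144-3p and miR-144-5p far scarcer. Control library b stood apart. Arms of the miR-183 and miR-200 clusters, known from sensory and other epithelia, took 9.32% of its reads and between 0.0393% and 0.0722% in the other libraries. Most of this was miR-182-5p, with 8.92% of the reads. Control library a differed in let-7f-5p, which took 17.8% of its reads and between 12.2% and 12.9% in the other libraries.

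The miRNAs antisense to Rtl1 were among the abundant miRNAs of the medial prefrontal cortex. Together the 10 arms took 9.61% (95% Wilson interval 9.6% to 9.63%) of the miRNA reads of control library a and 9.76% (9.74% to 9.78%) of control library b. They took 12.05% (12.03% to 12.07%) of CUMS library a and 9.35% (9.34% to 9.37%) of CUMS library b. CUMS library a was the highest and CUMS library b the lowest, so the control libraries lay between the CUMS libraries. These intervals hold counting error alone, since no molecular identifiers were used. The mean difference of 1.02 percentage points had p = 1.0 in a two-sided exact permutation test, in which 2 libraries against 2 cannot give less than 0.333. Without CUMS library a it was -0.331 percentage points, without CUMS library b 2.37, without control library b 1.09, and without let-7f-5p and miR-182-5p in the total 0.249. In bulk tissue, fewer cells of a type and less RNA per cell cannot be told apart.

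Most of these reads came from a pair of arms. mmu-miR-127-3p and mmu-miR-434-3p made between 93.3% and 94.2% of the reads of the 10 arms in every library. mmu-miR-127-3p ranked 3 or 4 among all 1038 miRNAs in every library and 3 by the mean over the libraries. Its normalized read count was 673333 and 674417 in controls against 729486 and 625619 after CUMS. The controls were nearly equal to each other and lay between the CUMS libraries. mmu-miR-434-3p ranked between 7 and 12, with normalized read counts of 250657 and 314826 in controls against 385033 and 263421 after CUMS. Here too CUMS library a was highest, but the other CUMS library lay inside the control range.

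**Figure D1:**
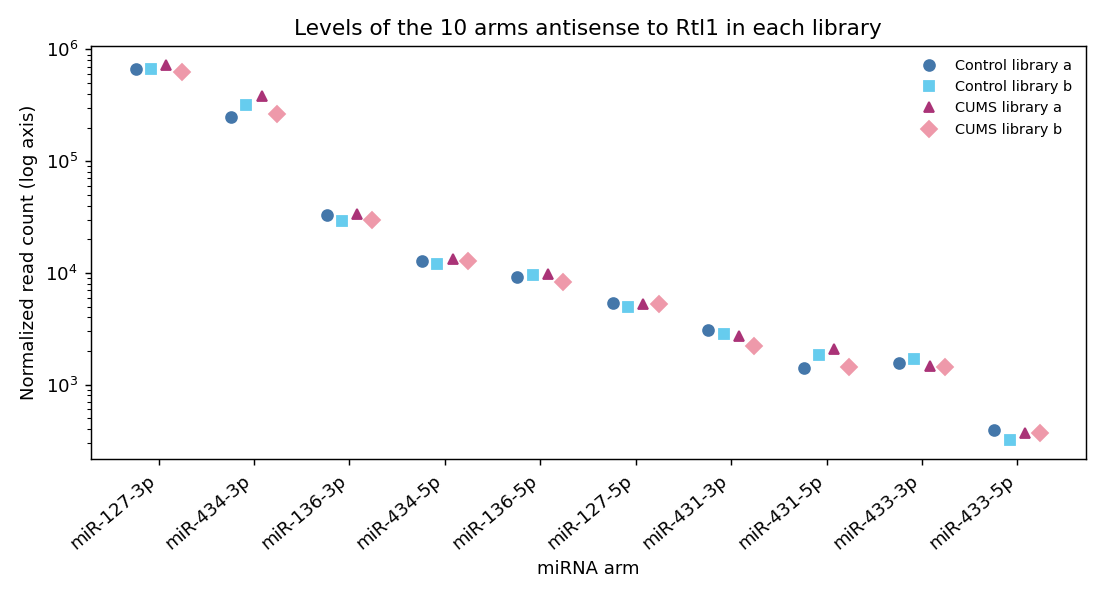
Normalized read counts (log axis) of the 10 arms in each of the 4 libraries, ordered by the mean level, with 1 point per library. mmu-miR-127-3p lies at 625619 to 729486 and mmu-miR-433-5p at 318 to 391, and the libraries of one arm lie close together compared with the distance between most arms.

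The levels fell over more than 3 orders of magnitude from mmu-miR-127-3p to mmu-miR-433-5p, whose ratio was between 1680 and 2120 in the 4 libraries. The lengths of the arms are nearly equal, so these counts need no correction for length, but ligation and PCR can favor single sequences, and levels of different miRNAs carry that unknown factor. By the mean over the 4 libraries the order was mmu-miR-127-3p (675714), mmu-miR-434-3p (303484), mmu-miR-136-3p (31396), mmu-miR-434-5p (12701), mmu-miR-136-5p (9226), mmu-miR-127-5p (5222), mmu-miR-431-3p (2720), mmu-miR-431-5p (1686), mmu-miR-433-3p (1540) and mmu-miR-433-5p (363). Of these neighbors, 1 pair had overlapping ranges, mmu-miR-431-5p (1404 to 2079) and mmu-miR-433-3p (1436 to 1686), so their order is not settled by these libraries. The step from mmu-miR-434-3p to mmu-miR-136-3p was the largest one between neighbors, with a fold of 9.67 in the means.

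The 5 hairpins were far from equal in level, and the level did not follow the order of the hairpins. With both arms added, the normalized reads of miR-431 and miR-433, the first hairpins on the plus strand, were 3671 to 4780 and 1809 to 2004. Those of miR-127 in the middle were 630893 to 734750, and the hairpins after it, miR-434 and miR-136, had 263352 to 398319 and 37831 to 43625. In every library miR-127 had between 339 and 402 times the reads of miR-433, its neighbor 1007 bases away. The miR-434 hairpin had between 6.26 and 9.13 times the reads of miR-136, which lay 727 bases farther on.

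**Figure D2:**
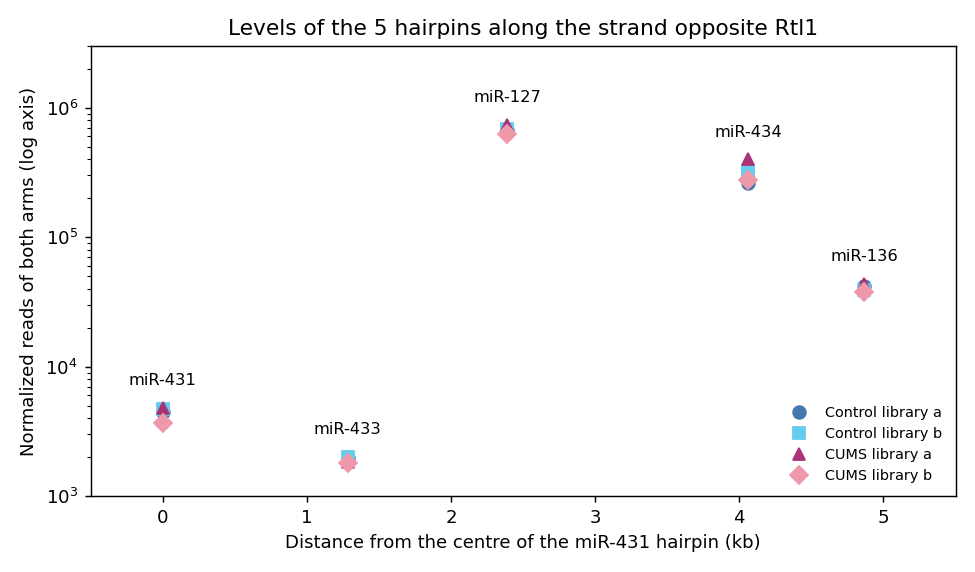
Normalized reads of both arms (log axis) of each hairpin against the distance of its centre from that of the miR-431 hairpin in kb, with 1 point per library. The level is lowest at miR-433 (1809 to 2004), highest at the next hairpin, miR-127 (630893 to 734750), and falls again to miR-136 (37831 to 43625).

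In all 5 precursors the 3p arm was the more abundant one. Across the 201 precursors with both arms tested, the 3p arm was higher in 94 (46.8%). The same was seen in 13 of 28 precursors of the Mirg cluster and in 4 of 7 hosted by or near Meg3 and Rian, the neighboring noncoding genes. The size of the imbalance differed widely among the 5 precursors, with a mean fold of the 3p over the 5p arm of 129 for miR-127, 23.6 for miR-434, 4.24 for miR-433, 3.4 for miR-136 and 1.62 for miR-431. For miR-127 and miR-434, the precursors with the largest imbalance, the abundant 3p arm began with U. For miR-431 and miR-433 it was the minor 5p arm that began with U, and both arms of miR-136 began with A.

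The share of the 5p arm was then compared between the groups, to see whether the choice of the arm differed after CUMS. For miR-127 the 5p arm made 0.794% and 0.73% of the reads of both arms in controls against 0.716% and 0.836% after CUMS. For miR-434 the shares were 4.82% and 3.67% in controls and 3.34% and 4.65% in CUMS. In both precursors the control range lay inside or across the CUMS range. For miR-136 the shares were 21.8% and 24.4% in controls and 22.6% and 22.1% in CUMS. For miR-431 they were 31.2% and 39.1% in controls and 43.5% and 39.0% in CUMS, so that control library a lay apart from the other libraries. For miR-433 they were 19.9% and 15.9% in controls and 20.2% and 20.6% in CUMS. Only for miR-433, among these 5, did the groups not overlap, with control library a (19.9%) close to CUMS library a (20.2%) and control library b apart from both. Across the 201 precursors with both arms tested, the 5p share did not overlap between the groups in 71 (35.3%).

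**Figure D3:**
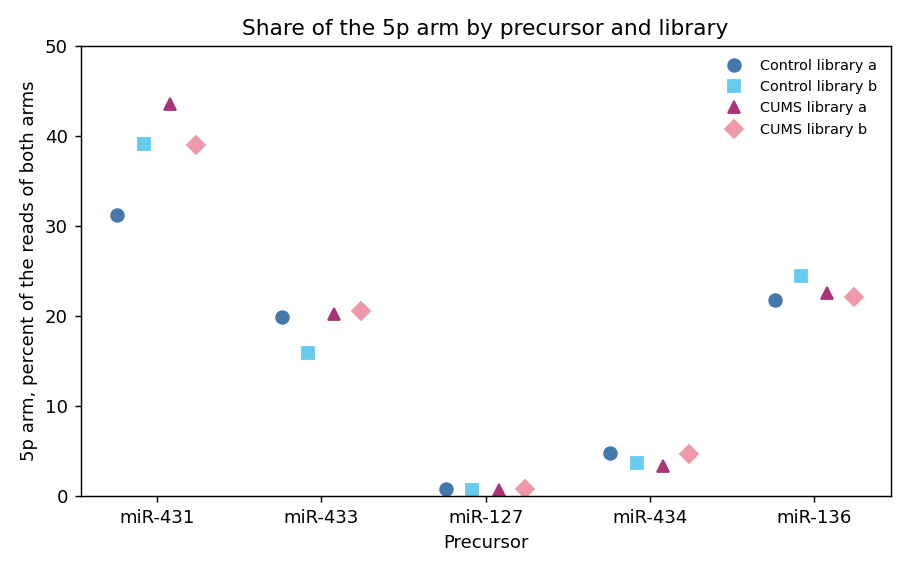
Share of the 5p arm in the reads of both arms (percent) for each precursor, with 1 point per library. The share runs from under 1% in miR-127 to between 31.2% and 43.5% in miR-431, and control and CUMS libraries overlap in every precursor but miR-433.

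The mean 5p share was higher in CUMS for 3 precursors and lower for 2, and the 5p to 3p ratio was higher in CUMS in 58.2% of the 201 precursors. The differences were 6.06 percentage points for miR-431, 2.53 for miR-433, 0.0139 for miR-127, -0.253 for miR-434 and -0.761 for miR-136. Their sizes moved with single libraries. The difference for miR-431 was 2.09 points without control library a, 10.0 without control library b and 3.81 without CUMS library a, and that for miR-433 was 0.522 without control library b and 4.54 without control library a. For miR-127, miR-434 and miR-136 the sign changed when some library was left out, and without control library b the differences were -0.0181, -0.829 and 0.559 points. The two-sided exact permutation tests with 2 libraries per group gave p = 0.333 for miR-433, the smallest that they can give, and 0.667 or 1.0 for the others, and all were 1.0 after Benjamini-Hochberg adjustment over the 5. The log2 ratio of the 5p to the 3p arm was also fitted with limma across the 201 precursors. Its difference between CUMS and control was 0.38 for miR-431 (SE 0.26, 95% interval -0.29 to 1.04, adjusted p = 0.937) and 0.24 for miR-433 (SE 0.25, interval -0.40 to 0.89, adjusted p = 0.949). For miR-127 it was 0.023 (interval -0.38 to 0.42), for miR-136 -0.060 (-0.47 to 0.35) and for miR-434 -0.099 (-0.73 to 0.54). In this fit 0 of the 201 precursors (0%) had an adjusted p under 0.05, and 12 (5.97%) had an unadjusted p under 0.05, none of which was among the 5. Without control library b the log2 difference was 0.63 for miR-431 (adjusted p = 0.951) and 0.047 for miR-433 (adjusted p = 0.961). The arm ratio ranged less over the 4 libraries in each of the 5 precursors than in the median precursor, whose range was 0.96 on the log2 scale. This comparison was not matched for level. Arms entered the 201 precursors with as few as 5 reads in 1 library, whereas mmu-miR-433-5p, the scarcest of the members, had a normalized read count of at least 318.

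The levels of the single arms were compared between CUMS and control mice with limma, on log2 of the normalized read count plus 1 over the 719 miRNAs with at least 5 reads in 1 library or more. All 10 arms passed this filter in every library. None of them passed the test. Across the 719 miRNAs, 0 (0%) had an adjusted p under 0.05 and 28 (3.89%) an unadjusted p under 0.05, and 0 of the 10 arms were among the 28. The edgeR quasi-likelihood test and the DESeq2 Wald test gave 0 miRNAs with an adjusted p under 0.05 as well, with 30 and 24 at an unadjusted p under 0.05 and 0 of the 10 arms among them. The adjusted p of the arms in limma was between 0.835 and 0.991.

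The abundant 3p arms of miR-127, miR-434 and miR-136 gave log2 ratios of CUMS over control of 0.0036 (SE 0.15, 95% interval -0.36 to 0.36), 0.18 (SE 0.22, -0.36 to 0.72) and 0.019 (SE 0.15, -0.34 to 0.37). On a linear scale the interval of mmu-miR-127-3p reaches from 0.781 to 1.29 times the control level, and that of mmu-miR-434-3p from 0.781 to 1.65 times. mmu-miR-136-3p had normalized read counts of 32912 and 29435 in controls against 33771 and 29467 after CUMS, almost the same pair of values in both groups. For mmu-miR-434-3p the libraries of the CUMS group differed from each other by 0.55 on the log2 scale, more than the difference between the groups. Its ratio was 0.45 without CUMS library b, -0.093 without CUMS library a, 0.35 without control library b and 0.017 without control library a.

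The minor 5p arms of the same precursors were also close to their control levels. mmu-miR-434-5p had 12695 and 11985 in controls against 13286 and 12838 after CUMS. Both CUMS libraries lay above both controls, with a log2 ratio of 0.082 (SE 0.13, interval -0.24 to 0.41, adjusted p = 0.941). mmu-miR-136-5p had 9169 and 9515 in controls and 9854 and 8364 in CUMS, with a log2 ratio of -0.041 (SE 0.15, interval -0.40 to 0.32). mmu-miR-127-5p had 5391 and 4960 in controls and 5263 and 5273 in CUMS, with a log2 ratio of 0.027 (SE 0.14, interval -0.31 to 0.37). In the last of these the CUMS libraries were nearly equal and lay within the control range.

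With all 4 libraries and DESeq size factors, mmu-miR-431-3p had the largest log2 ratio of the 10 arms in absolute size. Its normalized read count was 3094 and 2845 in controls against 2701 and 2240 after CUMS. Each CUMS value was below both control values, and the CUMS mean was 83.2% of the control mean. The log2 ratio was -0.27 (SE 0.17, interval -0.67 to 0.13) with an unadjusted p of 0.150 and an adjusted p of 0.835 in limma. It kept its sign in every alternative setting tried, between -0.41 and -0.14. Because the groups did not overlap, leaving out 1 library could not change the sign. The ratio of mmu-miR-431-3p was not the largest in every setting. mmu-miR-434-3p was larger with division by the total reads (0.26 against -0.19), without control library b (0.35 against -0.33) and without CUMS library b (0.45 against -0.14), and mmu-miR-433-5p without control library a (0.22 against -0.21). The other arm, mmu-miR-431-5p, had 1404 and 1830 in controls and 2079 and 1431 in CUMS, with overlapping groups and a log2 ratio of 0.11 (SE 0.24, interval -0.47 to 0.68). The arms of this hairpin thus differed in the sign of their ratios, neither of which passed the test. The ratio of mmu-miR-431-5p was -0.16 without CUMS library a, -0.085 without control library a and 0.30 without control library b.

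Of the hairpins, miR-433 had the fewest reads of both arms in every library. Its 3p arm, mmu-miR-433-3p, had 1577 and 1686 in controls against 1459 and 1436 after CUMS, so that both CUMS libraries were lower than both controls. Its log2 ratio was -0.17 (SE 0.15, interval -0.54 to 0.20, adjusted p = 0.886 in limma) and stayed between -0.22 and -0.094 in the alternative settings. Here too leaving out 1 library could not change the sign. mmu-miR-433-5p had 400 and 318 reads in controls against 392 and 352 reads after CUMS, with a log2 ratio of 0.073 (SE 0.20, interval -0.41 to 0.56) that was -0.076 without control library b. Once normalized, its control libraries lay on both sides of the CUMS libraries.

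**Figure D4:**
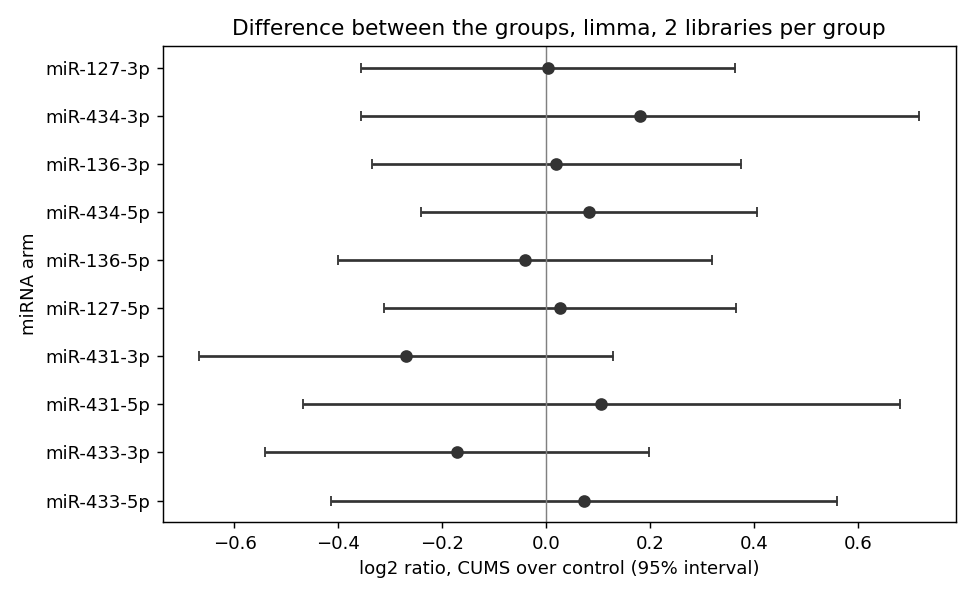
log2 ratio of CUMS over control for the 10 arms from limma (points) with 95% intervals (bars), 2 libraries per group, in the order of their levels. Every interval includes 0, and the outermost bounds are -0.67 for mmu-miR-431-3p and 0.72 for mmu-miR-434-3p.

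The 10 arms did not share one direction. The mean log2 value was higher in CUMS for 7 arms and lower for 3, against 50.5% higher among the 719 miRNAs tested. The count rests on values near 0. It was 4 of 10 with TMM factors, 4 without control library b and 3 without CUMS library a. Of the 5 precursors, 2 (miR-127 and miR-434) had both arms with the same sign. The median log2 ratio of the 10 arms was 0.023 and that of all 719 miRNAs was 0.005, and the median absolute ratio was 0.078 against 0.28. The groups did not overlap for 3 of the 10 arms (30%), 1 higher and 2 lower in CUMS, against 33.8% of the 719. The fold of the group means was above 1.5 for 0 of the 10 arms and for 31.7% of the 719. The 719 were not matched to the arms for level. Their median mean normalized read count was 50, against 7220 for the 10 arms, so these absolute ratios and folds are not compared at like abundance. For 8 of the 10 arms the libraries of one group differed from each other by more than the groups did. The 95% interval lay wholly inside a fold of 1.5 in either direction for 7 arms, and it reached beyond 1.5 for mmu-miR-434-3p, mmu-miR-431-5p and mmu-miR-431-3p.

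**Figure D5:**
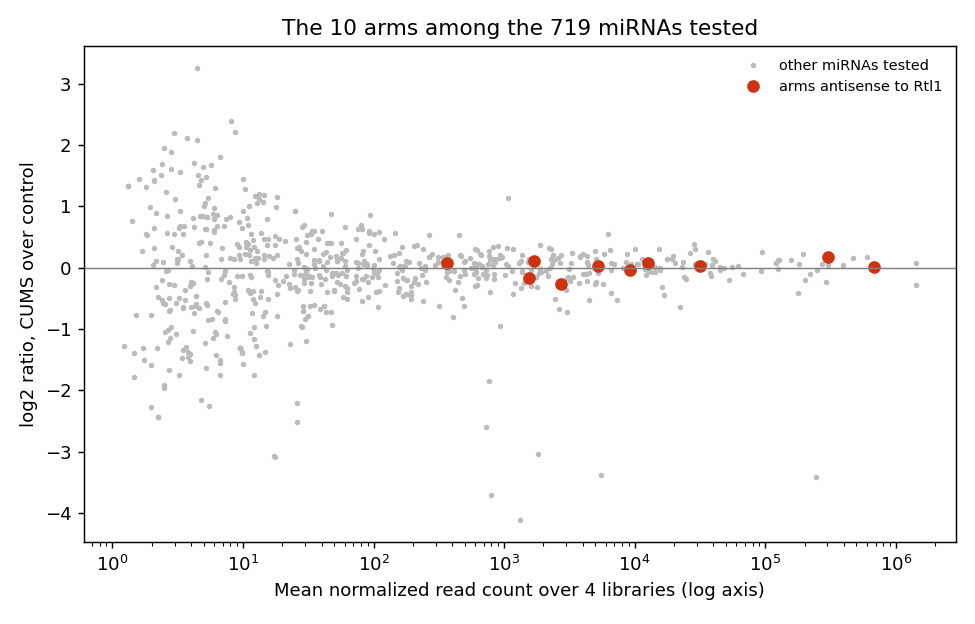
log2 ratio of CUMS over control against the mean normalized read count over the 4 libraries (log axis) for the 719 miRNAs tested, with the 10 arms antisense to Rtl1 in red. The 10 arms lie between -0.27 and 0.18, close to the line at 0.

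Across single libraries, the arms varied in more than one pattern. CUMS library a held the highest normalized level for 6 of the 10 arms and exceeded CUMS library b for 8 of them, as it did for 48.5% of the 719 miRNAs. mmu-miR-434-3p and mmu-miR-431-5p had the same order of the libraries, with CUMS library a highest, then control library b, CUMS library b and control library a. Their partner arms had other orders. The range of the 10 arms over the 4 libraries was 0.23 on the log2 scale in the median, from 0.12 to 0.62. Among the 235 miRNAs at or above the mean level of mmu-miR-433-5p, the median range was 0.37, and 7 of the 10 arms were below it. The 235 include the 10 arms and, beyond this lower limit, were not matched to them for level.

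The summed reads of the 10 arms were compared with the pattern of each other miRNA with a mean of at least 50. This sum mainly follows mmu-miR-127-3p and mmu-miR-434-3p, which made between 93.3% and 94.2% of it, and not each of the 10 arms. Among 349 miRNAs, the nearest over the 4 libraries was miR-484, with a distance of 0.030 on the log2 scale after the mean of each was subtracted. It was followed by miR-708-3p (0.047), miR-181a-2-3p (0.067), miR-1981-3p (0.083) and miR-7019-3p (0.084). miR-484, for example, had 614 and 655 reads in controls against 781 and 554 after CUMS. With 4 points this likeness is a description of these libraries.

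The other miRNAs of the region were set beside these arms. Of 71 listed arms of the Mirg cluster, 64 were tested, and 21 were higher and 43 lower in CUMS, with a median log2 ratio of -0.12. Of 19 arms hosted by or near Meg3 and Rian, 16 were tested, and 12 were higher and 4 lower, with a median of 0.14. None had an adjusted p under 0.05 in limma, and 3 of 64 and 2 of 16 arms had an unadjusted p under 0.05, against 3.89% of all 719 miRNAs, of which 50.5% were higher in CUMS. These were miR-758-3p, miR-539-3p and miR-3072-3p in the Mirg cluster and miR-493-3p and miR-341-5p beside Meg3 and Rian, and 4 of the 5 had fewer than 30 reads in every library. The exception, miR-758-3p, had 592 and 623 reads in controls against 455 and 336 after CUMS, with a log2 ratio of -0.62 (SE 0.19, adjusted p = 0.835 in limma). Per library, the Mirg arms took between 2.76% and 2.99% of all reads and the Meg3 and Rian arms between 0.309% and 0.379%, so that the 10 arms antisense to Rtl1 held most of the region's listed reads. miR-3071 is annotated on the strand opposite miR-136 at chr12:109595318-109595397 and overlaps all 62 bases of that hairpin. None of its arms was among the 1038 miRNAs of the table.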

How the data were processed

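Small RNA of medial prefrontal cortex was sequenced in 2 control and 2 CUMS libraries. The authors removed adaptor, low-quality, contaminant and other noncoding RNA reads, matched the rest without mismatch to mouse miRBase precursors, and counted them per mature miRNA. Their notes name Bowtie, DESeq and mm10, and the versions used for the small RNA reads are not given in the sources used here. The deposited signal is the mean normalized count of a group, that is reads divided by DESeq size factors and averaged over the 2 libraries. The authors' ratio (fold change), its log2 value and the DESeq p-values, unadjusted and adjusted, were deposited beside it, hold the authors' comparison and were not used. The groups of the columns were taken from the study's own printed means.

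Each group mean is a sum of whole reads of 2 libraries times 2 steps. In control and CUMS alike, all 1038 means (100%) gave whole numbers within a relative tolerance of 1e-09, and the next best pair was near for 2 control values, 0 of them members. The depth was 10533646 and 10783592 reads for control libraries a and b, and 10427625 and 9589323 for CUMS libraries a and b. A floor of 3 reads is between 2.78e-05% and 3.13e-05% of a library, far below every member, and covers counting error only. RNA was isolated mouse by mouse, but the number of mice behind a library is not settled by the sources used here. The p-values thus rest on the spread between these libraries, which may be partly technical. In limma the variance of each miRNA is also drawn toward a trend over all miRNAs tested. Its p-values and intervals therefore do not measure the spread of that miRNA alone.

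Groups were compared with limma 3.58.1 (trend) on log2(normalized count + 1), for miRNAs with at least 5 reads in 1 library, with Benjamini-Hochberg adjustment over all 719. The pseudocount slightly understates changes of low miRNAs. edgeR 4.0.16 (quasi-likelihood, TMM) and DESeq2 1.42.0 (Wald), run on the recovered counts in R 4.3.3, other scalings, filters and pseudocounts, and leaving out each library were the alternatives. The fit of arm ratios over precursors and leaving out libraries from the arm shares were added after the data were seen. In simulated counts of 719 miRNAs, with 200 of the more abundant ones changed by a fold of 4, limma called 200 of these and 7 others, edgeR 200 and 8, and DESeq2 195 and 5. Smaller folds were not simulated. All simulated counts shared a single fixed dispersion and no library was made to stand apart, so the simulation does not give the power of these libraries. Python 3.11.15 with scipy 1.17.1 and matplotlib 3.10.9 gave the exact tests and figures. The arms of the 5 precursors are all named. The members, the lists of neighboring and marker miRNAs and the rule for the 5 nearest patterns were chosen with earlier results of these data known. Sequences came from RefSeq (GRCm38.p6), which matched 884 of the 1038 names, and the Rtl1 annotation from GENCODE M21.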

Additional observations from a re-analysis of the deposited data

How the results depend on the processing

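Under every alternative with a test, 0 miRNAs had an adjusted p under 0.05. Of 130 log2 ratios of the 10 arms under alternatives, 18 took another sign, in 7 arms, and mmu-miR-431-3p, mmu-miR-433-3p and mmu-miR-434-5p kept theirs. The groups of these last arms did not overlap, so leaving out 1 library could not change their signs. The number of arms higher in CUMS, 7, was 4 with TMM factors and between 3 and 8 when 1 library was left out. With TMM factors the ratios of mmu-miR-127-3p, mmu-miR-127-5p and mmu-miR-136-3p were -0.031, -0.0080 and -0.016, and with edgeR's test -0.026, -0.0091 and -0.013. With the centred ratio of group means mmu-miR-127-3p had -0.013 and mmu-miR-136-3p -0.0001, and with division by total reads mmu-miR-136-5p had 0.036. Without control library a mmu-miR-431-5p had -0.085. Without control library b mmu-miR-127-5p had -0.033, mmu-miR-136-3p -0.061 and mmu-miR-433-5p -0.076. Without CUMS library a mmu-miR-127-3p had -0.11, mmu-miR-136-3p -0.079, mmu-miR-431-5p -0.16 and mmu-miR-434-3p -0.093. Without CUMS library b mmu-miR-136-5p had 0.077. The highest values with 1 library left out were 0.11 for mmu-miR-127-3p, 0.087 for mmu-miR-127-5p, 0.12 for mmu-miR-136-3p, 0.38 for mmu-miR-431-5p, 0.22 for mmu-miR-433-5p and 0.45 for mmu-miR-434-3p. For the 5p to 3p log2 ratio, with 1 library left out, the difference was between -0.089 and 0.14 for miR-127 (-0.038 without control library b), between -0.35 and 0.15 for miR-434 (0.11 without control library a) and between -0.17 and 0.047 for miR-136. The cause of these changes was not tested. With 1 library left out, the median log2 ratio of the arms was between -0.10 and 0.092, the difference in their share of the reads between -0.331 and 2.37 percentage points, and the number of precursors with a higher 5p share between 2 and 4; the lone library of the smaller group was then assumed to vary like the other group. No paired analysis was possible because the group means do not tell which recovered library is replicate 1 or 2. With 2 libraries per group, the 95% intervals of the arms reached down to -0.67 and up to 0.72 on the log2 scale, so differences within them could not be shown at this size.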
